A study of Mus musculus with 6 samples.

Results

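The tropomyosin family of the mouse consists of 4 genes, Tpm1, Tpm2, Tpm3 and Tpm4, and the arrays read them with 14 of 45037 probe sets (4 for Tpm1, 4 for Tpm2, 5 for Tpm3 and 1 for Tpm4). These are all probe sets that the platform annotation gives to 1 of these genes alone, and no probe set was shared between a tropomyosin and another gene. Each was kept on its own, because splice forms of a gene can be read by different probe sets. The RNA was from CAD, a catecholaminergic neuroblastoma line of the mouse, in 2 groups of 3 biological replicates. One group had received the plasmid RIPmiR-124a-2, from which miR-124a-2 is expressed, and miR-124 is a microRNA abundant in neurons. The other had received the empty RI vector, so both groups were transfected, and both are the same cell line in the same kind of serum-containing medium. The time after transfection and the share of cells that took up plasmid are not given in the sources used here. Since the labels do not say whether biological replicates were separate cultures, p-values measure only the spread between these samples.

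Tropomyosins are coiled-coil proteins that lie end to end along actin filaments and set which other proteins (myosins, cofilin, tropomodulins) gain access to them. Between them the genes yield several isoforms through alternative promoters, mutually exclusive internal exons and alternative last exons, though not each gene uses all of these. Neurons place different isoforms in different compartments. The splicing repressor PTB, the product of Ptbp1, represses alternative exons of Tpm1 and Tpm2, and Raver1 acts with it as a co-repressor on Tpm1. The comparison of the groups asks how the transcripts of the family differ between cells given the miR-124a-2 plasmid and cells given the empty vector.

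The probe sets with the largest fold changes of the family belonged to Tpm3, in both directions, and to Tpm4. In the RefSeq table of promoters (GRCm38.p6) Tpm3 has 2 starts, which lie 6870 bases apart, and 15.4% of genes in that table have over 1 start. The 250 bases before both Tpm3 starts and before the Tpm4 start are shown to set the alternative starts of Tpm3 beside the Tpm4 start. Capitals mark the GC box GGGCGG on either strand.

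Tpm3, upstream start, chr3:90072401-90072650, plus strand: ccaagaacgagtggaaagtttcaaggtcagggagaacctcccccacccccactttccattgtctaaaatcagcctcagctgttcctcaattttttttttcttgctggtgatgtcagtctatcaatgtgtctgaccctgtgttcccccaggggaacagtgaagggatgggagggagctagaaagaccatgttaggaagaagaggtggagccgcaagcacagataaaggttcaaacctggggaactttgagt

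Tpm3, downstream start, chr3:90079271-90079520, plus strand: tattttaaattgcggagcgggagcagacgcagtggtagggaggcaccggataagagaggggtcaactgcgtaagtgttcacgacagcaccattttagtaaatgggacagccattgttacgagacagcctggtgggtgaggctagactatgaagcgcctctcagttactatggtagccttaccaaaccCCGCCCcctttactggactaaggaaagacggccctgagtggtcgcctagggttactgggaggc

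Tpm4, chr8:72135038-72135287, plus strand: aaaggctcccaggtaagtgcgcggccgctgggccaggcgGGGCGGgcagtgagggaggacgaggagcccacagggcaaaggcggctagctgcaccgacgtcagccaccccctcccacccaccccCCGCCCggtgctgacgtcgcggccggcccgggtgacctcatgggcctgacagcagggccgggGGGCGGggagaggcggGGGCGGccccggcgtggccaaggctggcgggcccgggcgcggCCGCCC

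The window of the upstream Tpm3 start held 0 GC boxes, that of the downstream start 1 and that of Tpm4 5, and 32.7% of 32851 windows of this length held at least 1. The serum response factor element known as the CArG box (1.47% of windows), the letters TATAAA (12.4%) and the M-CAT element CATTCC (12.6%) had 0 matches in these 3 windows, also counting the other strand. The share of G and C was 48.8%, 53.6% and 78.8%, against a median of 52.4% over all windows. These matches describe the letters only. The arrays do not tell which start was used, and the exons that each probe set reads were not analysed here.

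Arrays gave 1 log2 signal per probe set, made by the authors with RMA, and a difference of 1 on this scale is 2-fold. Array medians ran from 4.72 to 4.83, and the trp controls, which read a bacterial gene that is not among the added poly-A controls, averaged 3.37 to 3.50. The interquartile range was 3.06 to 3.09 in 3 arrays, called narrow here (replicate 1 of each group and plasmid replicate 2), and 3.26 to 3.34 in the other 3, called wide. In both replicate 1 arrays the added poly-A controls averaged 5.96 and 5.97, above the 5.57 to 5.71 of the other arrays. Those same arrays had a 3′ to 5′ log2 ratio of the Tfrc controls of 1.34 and 1.55, against 0.95 to 1.09. The labels name no batch. Both divisions were made from these array values, and whether they reflect how the arrays were processed is not given in the sources used here. Fold changes are also given from fits blocked on the array set or on the poly-A batch, and no tropomyosin probe set passed the comparison of the groups without a block. Within narrow arrays they rest on a single empty vector array, and within wide arrays on a single plasmid array.

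In a limma fit over all 45037 probe sets, 0 of the 14 tropomyosin probe sets passed an adjusted p of 0.05 in either direction, where 0.0600% of all probe sets passed as higher and 0.209% as lower. At an unadjusted p under 0.05, 2 were higher and 2 lower (3.43% and 4.76% of all probe sets). The same 4 probe sets were those whose values did not overlap between the groups, 2 higher and 2 lower, against 6.28% and 6.97% of all probe sets. They were 1449996_a_at (Tpm3) and 1425028_a_at (Tpm2) on the higher side, and 1427260_a_at (Tpm3) and 1433883_at (Tpm4) on the lower side. Blocking on the array set, 1449996_a_at passed as higher and no member passed as lower, where 0.440% and 0.693% of all probe sets passed. Blocking on the poly-A batch gave the same outcome, where 0.209% and 0.546% passed. The median log2 fold change of the 14 was -0.05, with 5 above and 9 below 0, and that of all probe sets was 0.00, with 49.3% below 0. In bulk RNA, fewer cells with a transcript and less of it per cell cannot be told apart.

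**Figure D1:**
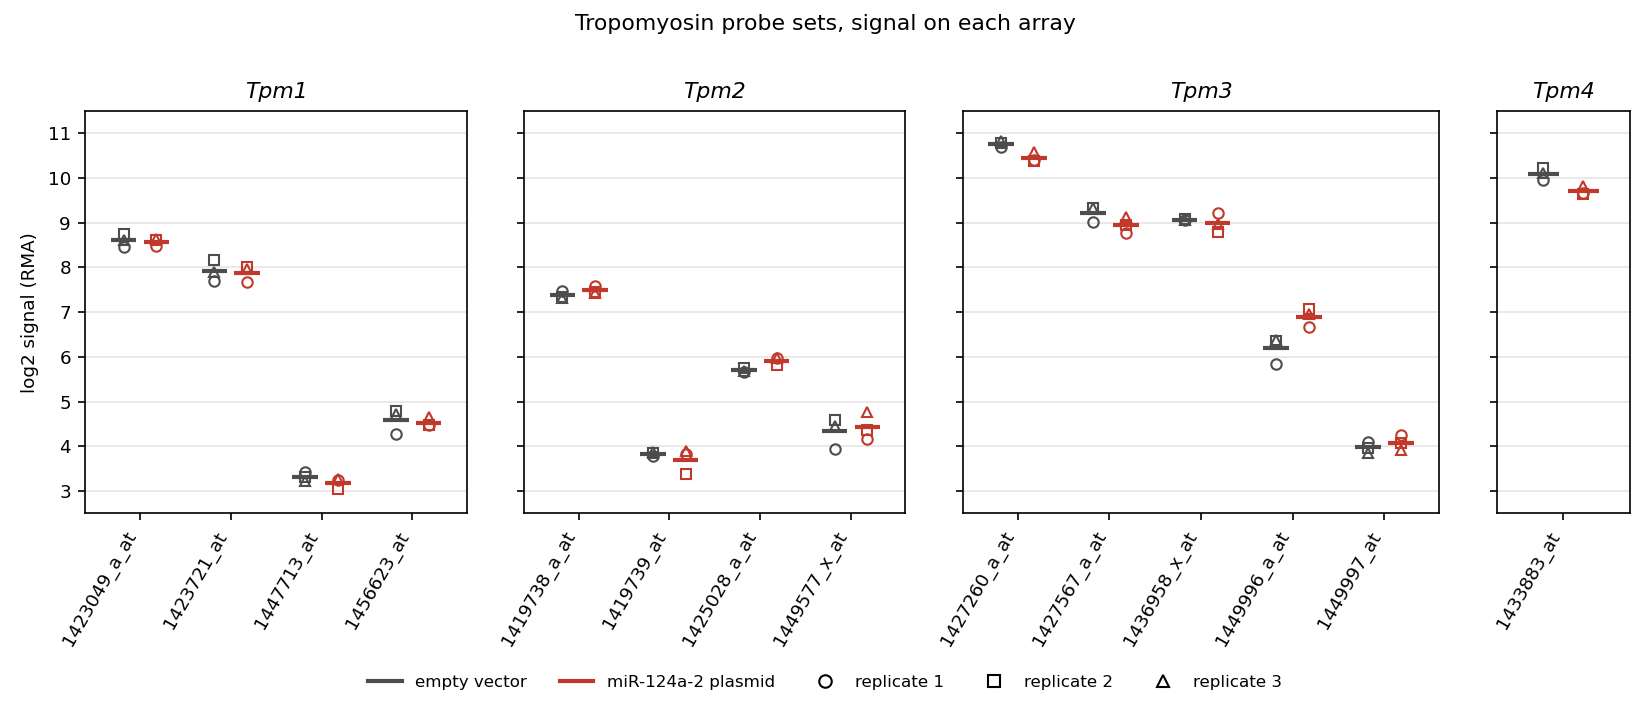
Log2 signal (RMA) of the 14 tropomyosin probe sets on each of 6 arrays, by gene. Symbols are single arrays (circle, square and triangle for replicates 1, 2 and 3), short bars are means of 3, grey is empty vector and red is miR-124a-2 plasmid. The red and grey symbols are apart for 1449996_a_at (mean 6.19 in grey and 6.89 in red), 1427260_a_at, 1433883_at and 1425028_a_at.

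Tpm3 encodes a tropomyosin whose short forms are found in most cells and in neurons and whose long form is made in slow muscle fibres. The probe set 1449996_a_at had 5.84, 6.35 and 6.39 in empty vector replicates 1, 2 and 3. With miR-124a-2 it had 6.66, 7.06 and 6.95. All 3 plasmid arrays lay above all 3 empty vector arrays, and replicate 1 was the lowest of its group on both sides. The means were 6.19 ± 0.31 and 6.89 ± 0.21 (SD, n = 3 per group), a log2 fold change of 0.70 ± 0.17 (SE), or 1.62-fold. Without a block it did not pass (adjusted p = 0.204, with 0.0240 to 0.557 across alternatives). Of all probe sets, 1.05% had a larger fold change in either direction.

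Blocked on the array set this Tpm3 probe set rose by 0.80 ± 0.14 (SE, adjusted p = 0.0473). Blocked on the poly-A batch it rose by 0.70 ± 0.09 (adjusted p = 0.0269). The difference was 1.02 within narrow and 0.58 within wide arrays, and it was 0.82 within the replicate 1 arrays and 0.64 within replicates 2 and 3. All 4 values are above 0, and the narrow value is over 1.5 times the wide one.

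Another Tpm3 probe set had lower values with miR-124a-2. For 1427260_a_at the empty vector arrays had 10.69, 10.77 and 10.81, and the plasmid arrays had 10.40, 10.37 and 10.59. Every plasmid array was below every empty vector array. The log2 fold change was -0.31 ± 0.10 (SE), or 1.24-fold lower. This did not pass (adjusted p = 0.386, with 0.175 to 0.964 across alternatives). It was -0.31 within narrow and -0.20 within wide arrays.

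The Tpm3 probe set 1427567_a_at had 9.00, 9.32 and 9.33 with empty vector and 8.77, 8.95 and 9.13 with miR-124a-2. The groups overlapped through empty vector replicate 1, which lay below the highest plasmid array. The log2 fold change of -0.27 ± 0.13 (SE) did not pass (adjusted p = 0.699). It was -0.17 blocked on the array set and -0.18 without plasmid replicate 1. The probe set 1436958_x_at, of a class whose probes can also match other transcripts, had 9.05 to 9.08 with empty vector and 8.79 to 9.22 with miR-124a-2, and a log2 fold change of -0.07 (adjusted p = 0.956). The dim 1449997_at, which the annotation gives the same source transcript as 1449996_a_at, had 3.86 to 4.24 over all 6 arrays and a log2 fold change of 0.10 (adjusted p = 0.921).

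To ask whether probe sets of 1 gene differed in their response, each was set against the mean of the gene's other probe sets on the same array. These differences show unequal change, not levels. For 1449996_a_at the difference from the other 4 Tpm3 probe sets was -2.38, -1.93 and -1.88 with empty vector and -1.50, -0.98 and -1.20 with miR-124a-2. The groups did not overlap, and the means were 0.83 ± 0.18 (SE) apart. For 1427260_a_at they were -0.42 ± 0.12 apart and for 1427567_a_at -0.37 ± 0.14 apart, both also without overlap. These 3 differences share values, since each probe set is in the mean that the others are set against. Groups did not overlap for 6 of the 13 tropomyosin probe sets in this measure, 3 higher and 3 lower, against 5.66% of all 25762 probe sets in each direction. The other 3 were 1423049_a_at of Tpm1 (0.05 ± 0.11), 1425028_a_at of Tpm2 (0.19 ± 0.12) and 1419739_at of Tpm2 (-0.28 ± 0.14), so that lack of overlap was not limited to Tpm3.

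None of the 13 tropomyosin probe sets of the 3 genes with several probe sets passed this test over 25762 probe sets in limma, where 0.0388% passed. At an unadjusted p under 0.05 there were 3, 1 higher and 2 lower, all of Tpm3 (5.99% of all probe sets in either direction). The adjusted p of 1449996_a_at was 0.295 without a block. It was 0.162 blocked on the array set (0.0505% of probe sets passed) and 0.0722 blocked on the poly-A batch (0.0388% passed). Of the alternatives only limma's diffSplice, which treats the probe sets of an array as independent, called it (adjusted p = 0.0218, with up to 0.897 in other fits), and diffSplice called 0.155% of all probe sets. Against each other Tpm3 probe set singly, 1449996_a_at was higher by 1.01 (1427260_a_at), 0.96 (1427567_a_at) and 0.77 (1436958_x_at) in the plasmid group than in the empty vector group. Against 1449997_at, which is dim, the value was 0.60, the smallest of these. With probe sets of a mean under 5 left out, the difference of 1449996_a_at from the rest of the gene was 0.91 (adjusted p = 0.270).

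**Figure D2:**
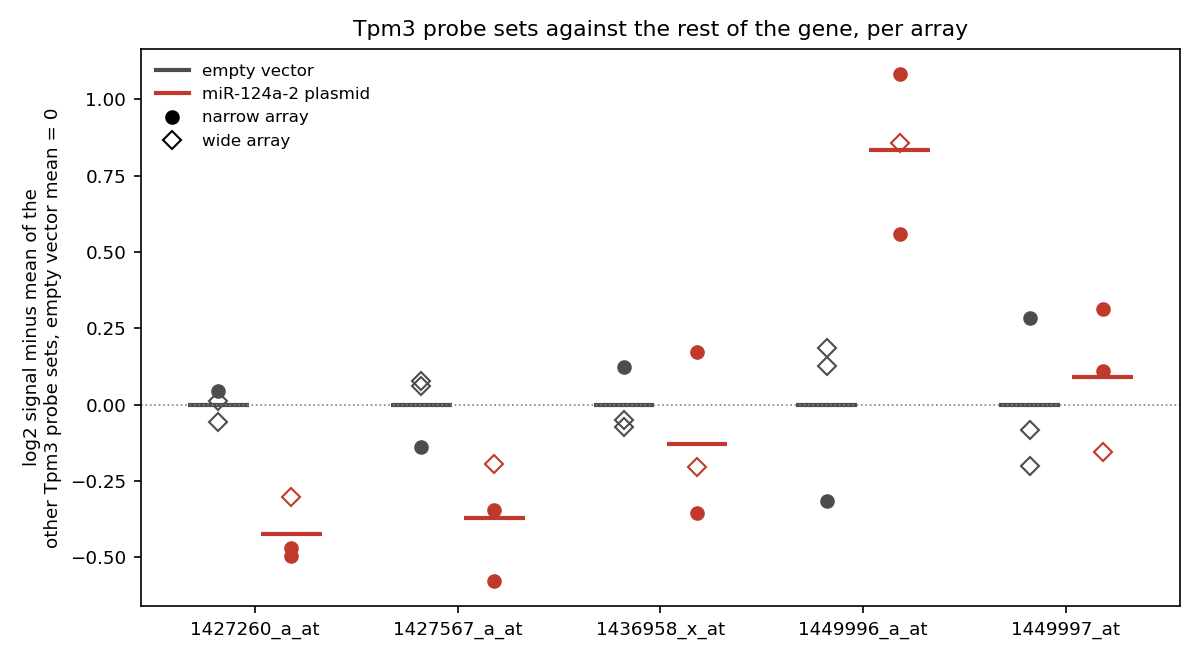
Log2 signal of each Tpm3 probe set minus the mean of the gene's other 4 probe sets on the same array, shifted so that the empty vector mean is 0. Points are arrays (filled circles narrow, open diamonds wide) and bars are means of 3; the plasmid mean lies 0.83 above 0 for 1449996_a_at and 0.42 and 0.37 below 0 for 1427260_a_at and 1427567_a_at.

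Tpm4 encodes a tropomyosin of stress fibres, platelets and growing neurites, and the arrays read it with the single probe set 1433883_at. It had 9.95, 10.23 and 10.11 with empty vector and 9.67, 9.64 and 9.82 with miR-124a-2. The lowest empty vector array was above the highest plasmid array. The means of 10.09 ± 0.14 and 9.71 ± 0.10 (SD, n = 3 per group) gave a log2 fold change of -0.39 ± 0.11 (SE), or 1.31-fold lower. It did not pass (adjusted p = 0.288, with 0.141 to 0.918 across alternatives), with -0.32 and an adjusted p of 0.165 blocked on the array set. Within narrow and wide arrays it was -0.30 and -0.35.

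Tpm2 encodes beta-tropomyosin, which has a skeletal muscle exon that PTB represses in non-muscle cells. The probe set 1425028_a_at had 5.66, 5.74 and 5.69 with empty vector and 5.96, 5.81 and 5.98 with miR-124a-2. All plasmid arrays were above all empty vector arrays. Its log2 fold change of 0.22 ± 0.09 (SE), or 1.17-fold, did not pass (adjusted p = 0.596, and 0.317 blocked on the array set). The Tpm2 probe set 1419738_a_at had 7.31 to 7.47 with empty vector and 7.43 to 7.59 with miR-124a-2, and a log2 fold change of 0.11 ± 0.10. The dim 1419739_at and 1449577_x_at had -0.14 ± 0.14 and 0.11 ± 0.21, with overlapping groups and signals from 3.38 to 3.90 and from 3.94 to 4.77. Neither sign held in every fit that left out 1 array. Blocked on the array set 1449577_x_at had 0.29 ± 0.10 (SE, adjusted p = 0.275), with 0.33 within narrow and 0.25 within wide arrays. Blocked on the poly-A batch it had 0.11 (adjusted p = 0.818). It is also of the class whose probes can match other transcripts.

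Tpm1 encodes alpha-tropomyosin, and PTB represses one of its alternative exons in smooth muscle cells. Its probe set 1423049_a_at had 8.45, 8.74 and 8.61 with empty vector and 8.47, 8.60 and 8.62 with miR-124a-2. All plasmid values lay within the range of the empty vector values, and the log2 fold change was -0.03 ± 0.11 (SE, adjusted p = 0.984). For 1423721_at the arrays had 7.70, 8.16 and 7.91 against 7.67, 8.01 and 7.96, and a log2 fold change of -0.04 ± 0.15 (adjusted p = 0.986). Replicate 1 was the lowest array of each group in both. The dim 1456623_at and 1447713_at had -0.06 ± 0.14 and -0.13 ± 0.10. Blocked on the array set 1423049_a_at, 1423721_at and 1456623_at had 0.017, 0.035 and 0.042, so that they have no settled sign. These 3 values without a block were smaller than their SE, and all 4 Tpm1 groups overlapped.

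**Figure D3:**
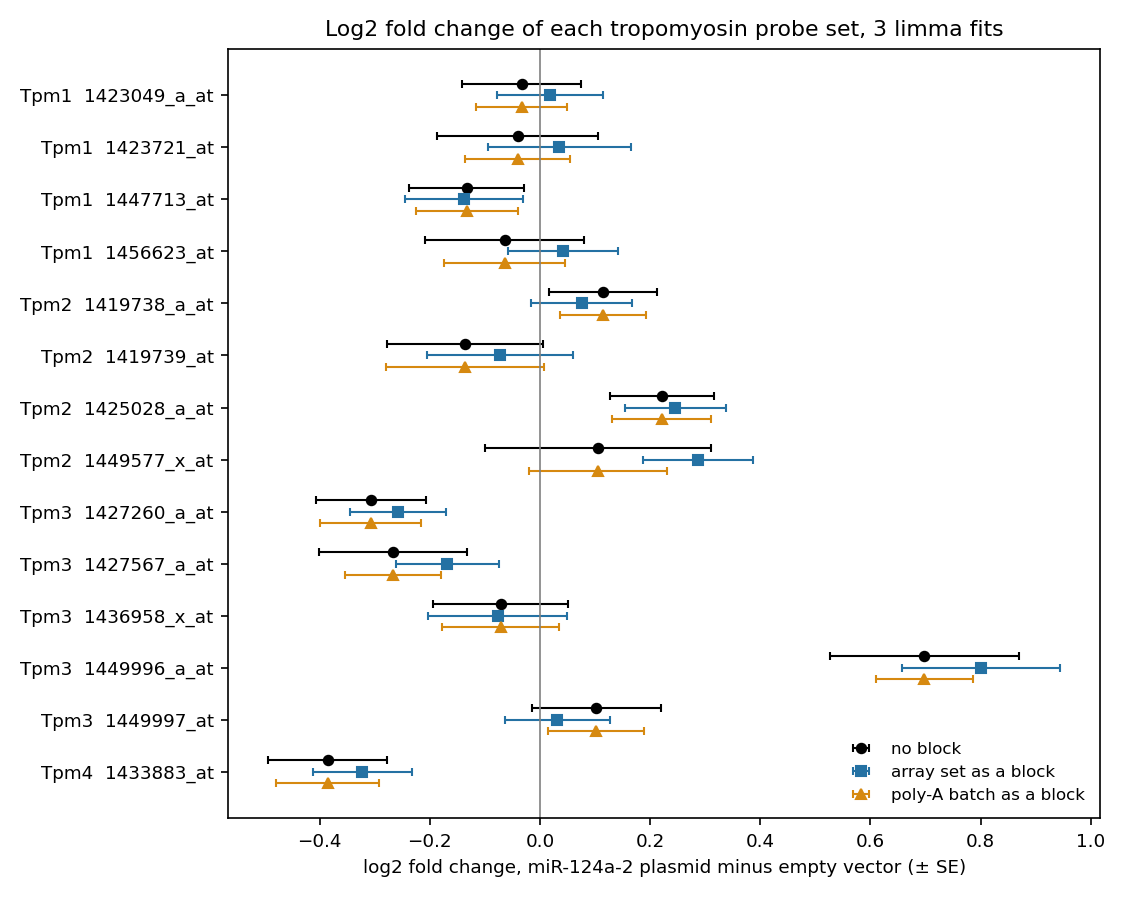
Log2 fold change (miR-124a-2 plasmid minus empty vector) of each tropomyosin probe set with its SE, from limma without a block (black circles), blocked on the array set (blue squares) and blocked on the poly-A batch (orange triangles). The Tpm3 probe set 1449996_a_at stands at 0.70 to 0.80 in the 3 fits, and the 4 Tpm1 probe sets lie between -0.14 and 0.04.

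Ptbp1, whose product represses exons of Tpm1 and Tpm2, passed as lower by 1 of its 3 probe sets on the same arrays. Its part in the tropomyosin values was not tested. The Ptbp1 probe set 1424874_a_at had 11.98, 12.01 and 12.07 with empty vector and 10.74, 10.59 and 11.02 with miR-124a-2. All plasmid arrays were below all empty vector arrays. Its mean fell from 12.02 ± 0.04 to 10.78 ± 0.22 (SD, n = 3 per group; limma adjusted p = 0.0179). The other 2 Ptbp1 probe sets, 1450443_at and 1458284_at, had -0.27 ± 0.14 and 0.07 ± 0.19 (SE) and did not pass. Raver1, read by 1427110_at, had 7.57, 7.85 and 7.91 with empty vector and 7.01, 7.07 and 7.37 with miR-124a-2. The groups did not overlap, and the log2 fold change of -0.63 ± 0.14 passed blocked on the array set (-0.52, adjusted p = 0.0387). It did not pass blocked on the poly-A batch (adjusted p = 0.0547) or without a block (adjusted p = 0.148). Of 19 measured regulators of tropomyosin exon choice, Ptbp1 alone passed as lower, none passed as higher and 18 did not pass. By their brightest probe set, 0.335% and 0.0879% of 18193 genes passed as lower and higher. Of the 19 regulators, 14 had log2 fold changes below 0 and 5 above. Groups did not overlap for 5 on the lower and 2 on the higher side (7.76% and 8.50% of genes). The median log2 fold change of the 19 was -0.14, against 0.02 over all genes. Blocked on the array set 3 passed as lower and 1 as higher (0.918% and 0.621% of genes). They were Ptbp1, Ptbp3 and Raver1 (lower) and Ptbp2 (higher), of which Ptbp2 and Ptbp3 are named after their values were seen. With the mean of a gene's probe sets none of the 19 passed.

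The partners of tropomyosin on the filament were taken from lists of actin genes, 1 probe set (the brightest) per gene. Of all 18193 genes taken this way, 0.0879% passed as higher and 0.335% as lower. None of 6 actins passed. The values of largest size were -0.21 for Acta1 and -0.10 for Actg2, both muscle actins. The list's median was -0.06. Tropomodulins cap the pointed end of tropomyosin-coated filaments and the related leiomodins nucleate filaments, and none of these 7 genes passed. Tmod3, the widely expressed tropomodulin, had 8.77 ± 0.18 and 8.13 ± 0.38 (SD), a log2 fold change of -0.64 (adjusted p = 0.324) with groups that did not overlap. Tmod1 had -0.48 (adjusted p = 0.645), and the list's median was 0.08.

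Of 7 genes for caldesmon, calponins and transgelins, which bind actin beside tropomyosin, none passed. Tagln3, the neuronal transgelin, had 7.77 ± 0.16 and 8.43 ± 0.16 (SD), a log2 fold change of 0.66 that did not pass without a block (adjusted p = 0.105). It passed blocked on the array set (0.56, adjusted p = 0.0308) and on the poly-A batch (adjusted p = 0.0463). With the array set block 0.621% of genes by their brightest probe set passed as higher, and with the poly-A block 0.209% of all probe sets. Cnn3 had -0.25. None of 8 troponins passed (median 0.05), and 6 of them had a mean signal under 5. Of 9 non-muscle myosin II genes, whose motors share the filament with tropomyosin, none passed and the median was -0.13. Myh9, the heavy chain of non-muscle myosin IIA, had -0.55 (adjusted p = 0.424), and the myosin phosphatase subunit gene Ppp1r12a had -0.35.

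None of 13 severing and depolymerising factors passed (median 0.04). Cap2, which helps recycle actin monomers, had 0.54 (adjusted p = 0.0868, with 0.0494 blocked on the array set and 0.0580 on the poly-A batch), and Cfl2, a cofilin, had -0.39. Blocked on the array set, 0.621% of genes by their brightest probe set passed as higher. None of 16 filament nucleators and elongators passed (median 0.01). The formin genes Diaph2 and Diaph3 had -0.49 (adjusted p = 0.583) and -0.42 (adjusted p = 0.814), or -0.33 and -0.18 blocked on the array set. Diaph2 was dim, with means of 4.54 and 4.05 with empty vector and miR-124a-2. None of 9 crosslinkers passed (median 0.01), with -0.39 for the filamin gene Flna and -0.25 for the actinin gene Actn4, each without overlap between groups. Of 12 genes of the serum response factor axis, Tln1, which links integrins to actin, fell by 1.20 (adjusted p = 0.0339) and 11 did not pass. Over all 18193 genes 0.335% passed as lower. That list's median was -0.18 with 11 of 12 members below 0, against 45.8% of all genes. A mean signal under 5 was seen in 2 of the 12. Srf itself had -0.18 (adjusted p = 0.816) and was named after its value was seen. Blocked on the array set or on the poly-A batch Pdlim7 fell too (adjusted p = 0.0401 and 0.0295, named likewise). In those fits 0.693% and 0.546% of all probe sets passed as lower. Counted by the brightest probe set per gene, 0.918% of genes passed as lower with the array set block. With the mean of a gene's probe sets none of the 12 passed.

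**Figure D4:**
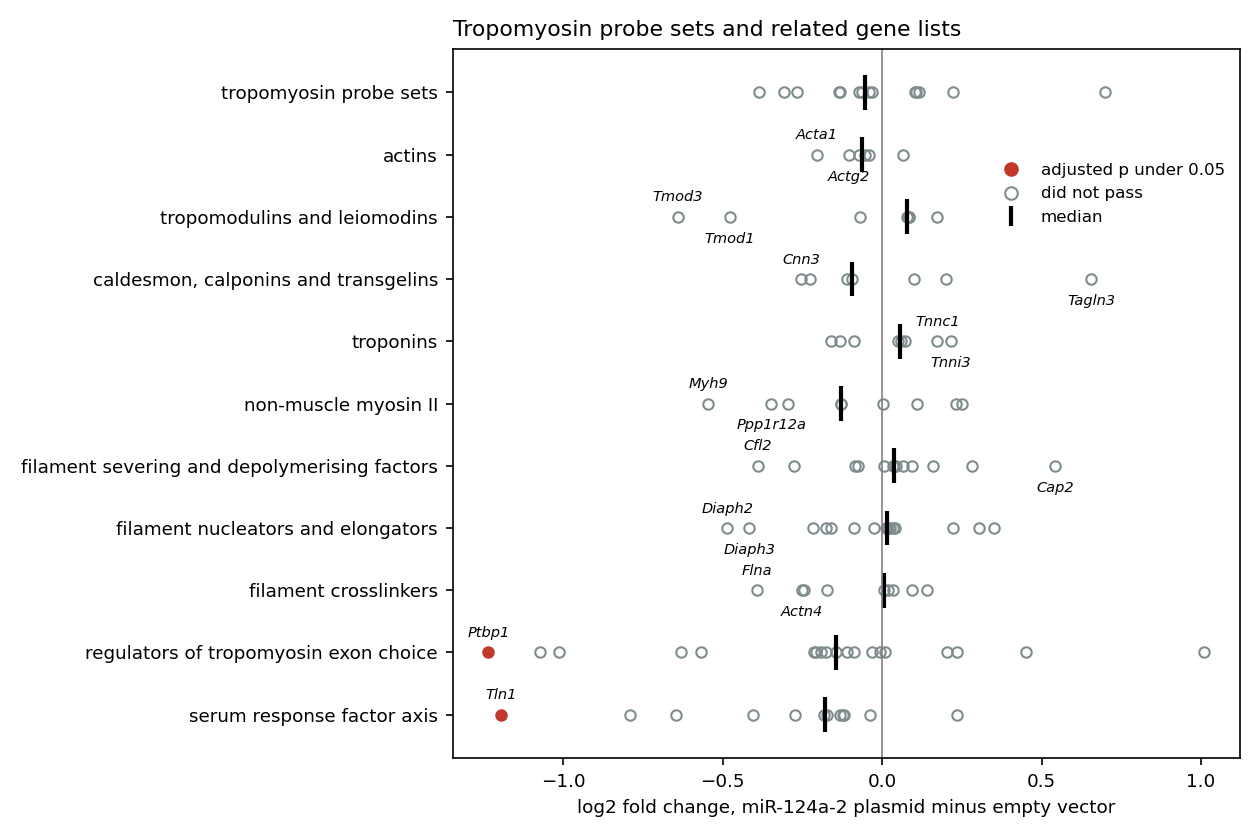
Log2 fold change (miR-124a-2 plasmid minus empty vector) of the 14 tropomyosin probe sets and of the genes in 10 lists around them, 1 circle per probe set or gene. Filled red circles passed at an adjusted p under 0.05 in the fit over all probe sets (Ptbp1 and Tln1), open circles did not, and vertical bars are medians, from -0.18 to 0.08.

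Markers of the cell line and of other cells were measured as well. Of 11 markers of catecholaminergic and neuronal cells, all had log2 fold changes above 0 (median 0.32), as had 9866 of all 18193 genes. None of the 11 passed, and 6 had groups that did not overlap on the higher side (8.50% of genes by their brightest probe set, and 7.76% on the lower side). Their mean signal ran from 8.78 to 8.88 with empty vector and from 9.06 to 9.15 with miR-124a-2, and Th, which defines catecholaminergic cells and was named after its values were seen, had means of 6.32 and 6.77. The largest changes of that list were 0.54 for Syt1 (adjusted p = 0.109) and 0.52 for Ddc (adjusted p = 0.269). The part of this in the tropomyosin values was not tested. Other tropomyosin-rich cells were looked for by their markers. None of 8 skeletal, 6 cardiac and 5 smooth muscle markers passed, and 4 in each list had a mean signal under 5. Not all were dim, since the means of single genes reached 9.32 in the skeletal, 5.92 in the cardiac and 6.48 in the smooth muscle list. Per array the mean log2 signal over the list was 5.27 to 5.53 with empty vector and 5.31 to 5.53 with miR-124a-2 for skeletal muscle. In the same order it was 4.58 to 4.69 and 4.68 to 4.81 for cardiac muscle. For smooth muscle it was 4.60 to 4.69 and 4.57 to 4.75. Of fibroblast, glial, endothelial and leukocyte markers none passed either.

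Genes whose 6 values were most like those of each tropomyosin's most variable probe set were found by the root mean square difference of log2 signals over 6 arrays, after each probe set's own mean was subtracted. For 1449996_a_at (Tpm3) they were Sncg (0.0857), Zfp385a (0.103) and Adamts4 (0.114). For 1433883_at (Tpm4) they were Pla2g12a (0.0241), Pgf (0.0296) and Mad2l1 (0.0317). For 1423721_at (Tpm1) they were Parp2 (0.0386), Prdx4 (0.0431) and Aopep (0.0435), and for 1449577_x_at (Tpm2) Dock2 (0.0554), Parp3 (0.0570) and Stra6 (0.0570). They were taken from 18193 genes by likeness alone, and no test was made. The probe set 1449577_x_at was dim (means of 4.33 and 4.44 with empty vector and miR-124a-2), with replicate 1 the lowest array of each group.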

How the data were processed

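The authors deposited log2 signals of 45101 probe sets for 6 arrays; the submitters' processing notes name RMA and no version. Biotin-labelled cRNA came from 6 ug of Trizol-extracted total RNA, per the labels' protocols. The 64 control probe sets were used for array checks only. Gene symbols are those of GEO's platform annotation (34945 probe sets with 1 gene, 932 with several, 9160 not listed), which is dated and may miss probe sets of a gene. Arrays give no read depth, and 3 arrays per group limit precision.

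Groups were compared with limma 3.58.1 in R 4.3.3 (lmFit and eBayes, two-sided), with Benjamini-Hochberg adjustment over all 45037 probe sets. Within-gene differences were fitted likewise over 25762 probe sets of 9010 genes. The code was tested on simulated arrays with independent noise and no array set or poly-A batch, so it was not tested for such divisions. List genes were represented by their brightest probe set (157 of 166 listed symbols were measured). Members, lists and settings were chosen with earlier results of these data known. Named genes are all probe sets of the tropomyosins, Ptbp1 and Raver1, and from each list up to 4 members that passed or, where none did, the 2 with the largest change. Of the marker lists besides the neuronal one, only counts, mean log2 signals over the list and the highest gene means are given. The array set was divided at the largest gap in interquartile range and the poly-A batch at the largest gap in the mean of the added controls. The miR-124 sequence was not used here.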

Additional observations from a re-analysis of the deposited data

How the results depend on the processing

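Over the alternatives of the fit (each array left out, 3 blocks, 3 scalings, a filter on dim probe sets, eBayes with an intensity trend, also robust, 1 probe set per gene, and replicates 2 and 3 alone), the number of tropomyosin probe sets called as lower was 0 throughout. The number called as higher was 1 with the array set, the poly-A batch or the replicate number as a block and 0 otherwise, and 0 also at an adjusted p under 0.1. These 3 blocks overlap, since the poly-A batch sets replicate 1 apart from replicates 2 and 3 and the narrow arrays include replicate 1. In all 3 fits the probe set was 1449996_a_at of Tpm3. With the replicate block its log2 fold change was 0.70 (adjusted p = 0.0240) and 1.49% of all probe sets passed. Same-numbered arrays deviated together in replicates 1 and 3 (correlations 0.58 and 0.56) but not in replicate 2 (0.03). Both replicate 1 arrays were narrow and both replicate 3 arrays wide, while replicate 2 had a wide empty vector array and a narrow plasmid array. These correlations therefore cannot tell pairing from the array set. The labels do not state a pairing, and the numbers were not taken to pair the samples. The number differing from the rest of their gene was 1 with diffSplice, which called 40 of all probe sets against 10 in the reported fit, and 0 otherwise. In 4 of the 6 fits that left out 1 array no probe set at all was called (each empty vector array and plasmid replicate 1; 2311 to 4247 at an unadjusted p under 0.05), so no member could be, and likewise with replicates 2 and 3 alone (3730). Calls over all probe sets numbered 121 in the reported fit, 39 with median centring, 268 with quantile normalization and 244 with cyclic loess. The filter on dim probe sets kept 9 tropomyosin probe sets and the fit of 1 probe set per gene 4. Leaving out 1 array moved 1449996_a_at between 0.52 and 0.81, 1427260_a_at between -0.37 and -0.27, and 1433883_at between -0.46 and -0.32. Signs turned for 1423049_a_at (-0.11 to 0.035), 1423721_at (-0.15 to 0.078), 1456623_at (-0.22 to 0.028), 1419739_at (-0.24 to 0.023), 1449577_x_at (-0.089 to 0.24) and 1436958_x_at (-0.18 to 0.031), and with the array set as a block for the first 3 (0.017, 0.035 and 0.042). None of these 6 passed in any fit. The cause was not tested.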
